A study of Homo sapiens with 9 samples.

Results

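The proteins that write, copy and remove DNA methylation were followed in RKO cells, a colorectal cancer line, through every array probe assigned by name to *UHRF1*, *UHRF2*, *USP7*, *DNMT1*, *DNMT3A*, *DNMT3B*, *DNMT3L*, *TET1*, *TET2* or *TET3*. These 10 genes, of 36619 gene names on the array, had 21 of its 50599 probes. Total RNA was hybridized in 1 colour to 9 SurePrint G3 Human GE v2 arrays. Cells transfected with a control siRNA and then given mock (ethanol) made up siCONT, and siUHRF1 cells received an siRNA against *UHRF1* and mock. The groups siCONT + TSA and siUHRF1 + TSA had the same siRNAs followed by trichostatin A (TSA), a histone deacetylase inhibitor, at 300 nM. Each of these 4 groups had 2 arrays. The siRNAs acted for 72 h before 24 h of TSA or mock, so that RNA was taken at 96 h. Replicate 1 of each *UHRF1* group carried siUHRF1-1 and replicate 2 carried siUHRF1-2, so their spread includes any difference between the siRNAs. The ninth array held RKO cells treated with 1 µM 5-aza-2′-deoxycytidine (5-aza-dC), a DNA methyltransferase inhibitor, for 72 h and given no siRNA. All groups are transient treatments of 1 cell line, and nothing in the labels says that replicate arrays came from separate cultures. P-values therefore measure the spread between these arrays, which may be technical.

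DNA methylation at CG dinucleotides is copied after replication. UHRF1 binds hemimethylated CG sites and ubiquitinates histone H3, which brings in DNMT1, the maintenance methyltransferase, and the deubiquitinase USP7 binds both proteins. DNMT3A and DNMT3B methylate new sites, DNMT3L is a catalytically inactive helper of theirs that is mostly a germ cell protein, and the TET enzymes oxidize 5-methylcytosine, a step towards its removal. *TET1* is itself among the genes that can be methylated in colorectal cancer.

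Values are log2 signals relative to the 75th percentile of the same array, so 0 is the level of that percentile and a difference of 1 is 2-fold. They rank arrays for a probe and do not compare genes. Of the 21 member probes, 12 were well above background on all 8 siRNA arrays and 4 were so on none of the 9 arrays. The limma test covered 23703 probes, each detected (well above background by the scanner software) in both replicates of 1 group or more, and 15 of them belonged to 8 member genes. *DNMT3L* and *TET3* had no tested probe. A probe was called altered when its Benjamini-Hochberg adjusted p over all tested probes was below 0.05. Signals at the 75th percentile were 245 to 338 for the siRNA groups and 822 for 5-aza-dC, whose array lay on another slide and scan. On the slide of the siRNA arrays, TSA went with the row and the siRNA with the column, so these positions cannot be told apart from the treatments. The epithelial genes *KRT8* and *KRT18* and the intestinal factor *CDX2* were above background on all 9 arrays, while *CDH1* and *VIL1* were so on none. *KRT18* was called higher in siUHRF1 + TSA than in siCONT (log2 change 0.81, adjusted p = 0.00868 from limma), as was *KRT19*, which was above background on 2 siRNA arrays and had group means of -6.20 in siCONT and -2.23 in siUHRF1 + TSA. *EPCAM* was above background on 1 siRNA array and on the 5-aza-dC array (-0.11). Of 5 genes of other lineages, *COL1A1* and *COL1A2* were called higher in siUHRF1 + TSA than in siCONT. *COL1A2* had group means of -6.34 in siCONT, -6.44 in siUHRF1, -6.20 in siCONT + TSA and -2.30 in siUHRF1 + TSA. *KRT19* and *COL1A2* were at background in siCONT and entered the test only through a group where they were high. Their means are no measure of the size of a change. Of the epithelial and of the other lineage genes, 2 of 4 tested were called higher and 0 lower in this comparison. Of all genes 16.1% were called higher and 8.08% lower. *DES* was above background on all 9 arrays and called higher in siUHRF1 + TSA than in siUHRF1 (log2 change 0.54, adjusted p = 0.0328 from limma). *PECAM1* was not above background on any array, *PTPRC* had means of -4.38 to -3.81 in the siRNA groups and read -2.55 on the 5-aza-dC array, and the part of such genes in the results below was not tested.

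The sequences behind the main result are those of *TET1*. Its tested probe is a 60-base oligonucleotide at chr10:70332072-70332131 (hg19, plus strand), which starts at base 481 of the transcript, and the first ATG of the probe is in capitals.

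TET1 probe A_33_P3295550: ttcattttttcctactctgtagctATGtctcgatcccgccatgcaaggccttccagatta

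The other *TET1* probes start at bases 8860 and 9508. RefSeq promoter windows (GRCh38.p14, 250 bases before and 50 after a start) were found for 9 of the 10 genes. One of the 3 *TET1* windows is shown beside 1 of *UHRF1* and that of *DNMT1*, to show the CG dinucleotides (in capitals) at which these enzymes act. Only the 250 bases before the start are printed.

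TET1, chr10:68560087-68560336, plus strand: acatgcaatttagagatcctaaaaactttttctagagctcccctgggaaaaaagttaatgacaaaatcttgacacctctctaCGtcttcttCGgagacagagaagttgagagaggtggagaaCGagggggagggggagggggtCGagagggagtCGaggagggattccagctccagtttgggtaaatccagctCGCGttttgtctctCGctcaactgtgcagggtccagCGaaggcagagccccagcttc
UHRF1, chr19:4909251-4909500, plus strand: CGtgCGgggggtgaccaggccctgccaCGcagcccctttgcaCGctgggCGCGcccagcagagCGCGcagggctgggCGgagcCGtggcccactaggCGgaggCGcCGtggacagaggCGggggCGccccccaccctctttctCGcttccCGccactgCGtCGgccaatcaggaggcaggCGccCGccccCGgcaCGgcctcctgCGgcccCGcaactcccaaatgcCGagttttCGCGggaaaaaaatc
DNMT1, chr19:10194954-10195203, minus strand: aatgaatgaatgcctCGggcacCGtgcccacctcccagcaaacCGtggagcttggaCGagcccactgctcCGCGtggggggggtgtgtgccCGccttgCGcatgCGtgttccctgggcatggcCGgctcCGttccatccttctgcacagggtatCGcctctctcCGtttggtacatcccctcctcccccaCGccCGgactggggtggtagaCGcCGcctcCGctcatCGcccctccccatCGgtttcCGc

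The *TET1* window held 10 CG dinucleotides over its 300 bases, and the other *TET1* windows held 6 and 11. The *DNMT1* window held 30 and the *UHRF1* windows held 36, 40 and 46, where the median of all 35116 windows was 14. The letters TTTNNCGC, a form of the E2F motif with 2 open positions, were searched on both strands. They occurred in 4 of the 22 member windows, of *UHRF1* (2 windows), *DNMT1* and *USP7*, and in 6.89% of all windows. These matches describe letters and not binding.

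*UHRF1*, the siRNA target, was read by both of its probes. On probe A_23_P208880 (chr19:4962065-4962124, hg19) both siCONT arrays stood at 2.69, the siUHRF1 arrays at 0.36 with siUHRF1-1 and 0.07 with siUHRF1-2, and the siCONT + TSA arrays at 2.87 and 2.86. The siUHRF1 + TSA arrays read -0.34 and -0.62. Every depleted array lay below every other array, with each siRNA. *UHRF1* was 5.54-fold lower in siUHRF1 than in siCONT (log2 change -2.47, SE 0.14, adjusted p = 0.00238 from limma) and 10.2-fold lower in siUHRF1 + TSA than in siCONT + TSA (adjusted p = 0.000132). Probe A_33_P3379454 (chr19:4960895-4960954, hg19) fell 5.06-fold and 7.24-fold in the same comparisons. Under normexp background correction its log2 change from siCONT to siUHRF1 was -1.53 in place of -2.34.

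Between the depleted groups, A_23_P208880 was lower with TSA than without (log2 change -0.70, SE 0.14, adjusted p = 0.0263), with both TSA arrays below both mock arrays. It differed by -0.70 between the siUHRF1-1 arrays and by -0.70 between the siUHRF1-2 arrays, and with a replicate block the adjusted p was 0.0276. The call was lost in 12 of 21 alternatives. Among these were normexp, spike-in scaling, no filter, the fit to only the groups compared and the methods' t-test with and without adjustment. The others were omission of either siCONT array, either siCONT + TSA array, siUHRF1 replicate 1 or siUHRF1 + TSA replicate 2. The second probe changed by -0.52 (adjusted p = 0.0726). In control cells the log2 differences with TSA were 0.18 (95% interval -0.16 to 0.52) and 0.00 (-0.38 to 0.38), neither called by limma. The intervals pool the spread of all siRNA groups. Median absolute replicate differences were 0.07 in siCONT, 0.08 in siCONT + TSA, 0.26 in siUHRF1 and 0.19 in siUHRF1 + TSA. The first TSA difference was called in 3 of 21 alternatives, the second in none. The 3 were the fit to only the groups compared and the methods' t-test with and without adjustment. Under normexp both changed sign. No call by limma thus does not show that TSA had no effect in control cells.

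**Figure D1:**
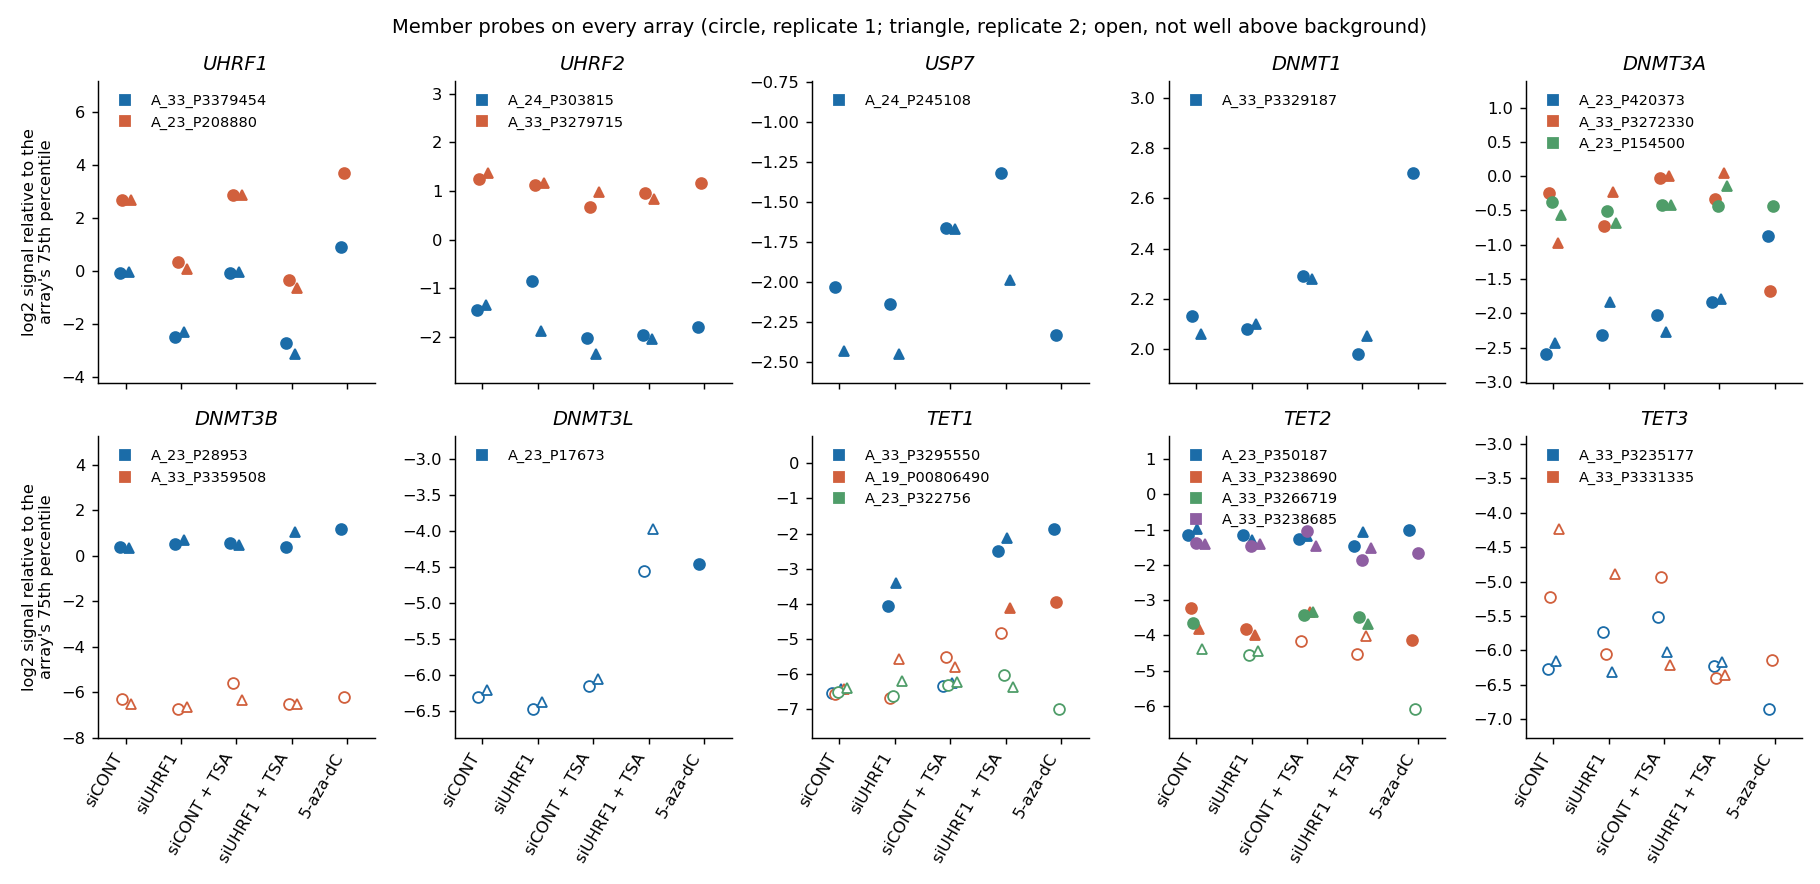
Log2 signal of the 21 member probes relative to each array's 75th percentile (vertical axes, ranges differ between panels) in the 5 conditions (horizontal axes). Circles are replicate 1, triangles replicate 2 and open symbols arrays not well above background; the *UHRF1* probes are low on the 4 depleted arrays, and *TET1* probe A_33_P3295550 is filled only on those and the 5-aza-dC array.

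Among the TET genes, *TET1* was the one called higher on UHRF1 depletion. On probe A_33_P3295550 the siCONT arrays read -6.54 and -6.45 and the siCONT + TSA arrays -6.36 and -6.26, and none of these 4 was well above background. The siUHRF1 arrays read -4.08 and -3.40, and the siUHRF1 + TSA arrays -2.49 and -2.14, all well above background. The groups with depletion did not overlap those without, and the combination did not overlap depletion alone. Because siCONT had no reading well above background, the rise is given as an approximate lower limit. By this limit *TET1* was at least 1.49-fold higher in siUHRF1 than in siCONT. In siUHRF1 + TSA it was at least 4.01-fold higher than in siCONT and at least 3.71-fold higher than in siCONT + TSA. The adjusted p-values from limma (0.00818, 0.000282 and 0.00054) belong to the fitted differences over background readings and not to these limits, and the probe had entered the test only through the depleted groups, where it was high. In this limit a dim array takes the lowest detected signal of that array, or its measured value if larger. That signal is no strict bound, since some probes not well above background read higher. On siCONT replicate 2 it was -4.28, and *TET3* probe A_33_P3331335 read -4.23 there without being well above background. Leaving out siUHRF1-1 or siUHRF1-2 moved the limit of the first comparison to 0.92 or 0.24 on the log2 scale, from 0.58, and the call held. From siUHRF1 to siUHRF1 + TSA, where all arrays were measured, *TET1* rose by 1.59 with siUHRF1-1 and 1.26 with siUHRF1-2 on the log2 scale. The fitted rise was 2.69-fold (log2 change 1.43, SE 0.23, adjusted p = 0.0149 from limma without pairing by siRNA). Without siUHRF1 + TSA replicate 2 this last change was 1.25 and not called (adjusted p = 0.0602).

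The *TET1* calls were lost under normexp and, in part, depended on the fit. Normexp here added an offset of 50 to every signal, which in itself shrinks the log2 differences of dim probes such as this one. Its results therefore cannot tell the offset apart from the background correction. With only the groups compared in the fit, siUHRF1 against siCONT (adjusted p = 0.0921) and siUHRF1 + TSA against siUHRF1 (adjusted p = 0.0831) were not called, and under the stricter filter the probe was not tested. Under normexp the limits were 0.09, 0.75 and 0.23 on the log2 scale for these comparisons in the same order, the change from siUHRF1 to siUHRF1 + TSA was 0.66, and none of the 4 was called (adjusted p = 1, 0.0612, 0.457 and 0.24). Probe A_19_P00806490, at base 9508, was well above background on siUHRF1 + TSA replicate 2 (-4.12) and on the 5-aza-dC array (-3.95), while the other 7 arrays read -6.69 to -4.85. Probe A_23_P322756, at base 8860, read -7.01 to -6.05 and was not well above background on any array. The *TET1* probes thus gave different readings, and only 1 of the 3 entered the test.

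*TET2*, which oxidizes methylcytosine in many somatic tissues, was read by 4 probes, and 2 of these were detected throughout. Probe A_23_P350187 ranged from -1.46 to -0.97 over the siRNA arrays and A_33_P3238685 from -1.85 to -1.04, and neither was called in any comparison. Probe A_33_P3266719, which the files assign to transcript NM_017628, read -3.64 and -4.38 in siCONT, -4.56 and -4.44 in siUHRF1, -3.43 and -3.33 in siCONT + TSA, and -3.47 and -3.68 in siUHRF1 + TSA. Both siUHRF1 arrays and siCONT replicate 2 were not well above background there. From siUHRF1 to siUHRF1 + TSA the measured signal rose by 1.09 with siUHRF1-1 and by 0.77 with siUHRF1-2 on the log2 scale. By the same approximate limit as for *TET1*, the probe was at least 1.87-fold higher in siUHRF1 + TSA than in siUHRF1. The adjusted p of 0.0477 from limma belongs to the fitted log2 difference of 0.93 over background readings and not to this limit. The probe had entered the test only through the TSA groups, where it was high. The call held in 5 of 20 alternatives and was lost without any single array of siUHRF1, siCONT + TSA or siUHRF1 + TSA. The fourth probe, A_33_P3238690, read -4.54 to -3.23 and was not called. The *TET3* probes A_33_P3235177 and A_33_P3331335 were not well above background on any array, from -6.85 to -4.23.

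*DNMT1*, the maintenance enzyme, stayed within 0.31 on the log2 scale over the 8 siRNA arrays. Its probe A_33_P3329187 (chr19:10244023-10244082, hg19, minus strand) read 2.13 and 2.06 in siCONT, 2.08 and 2.10 in siUHRF1, 2.29 and 2.28 in siCONT + TSA, and 1.98 and 2.05 in siUHRF1 + TSA. The siUHRF1 arrays fell between the siCONT arrays, and the log2 difference was 0.00 (95% interval -0.22 to 0.21), which leaves room for changes up to that size. The siCONT + TSA arrays stood above all others, and the siUHRF1 + TSA arrays below all others. The log2 difference between these 2 groups was -0.27 (interval -0.49 to -0.06), which was not called (adjusted p = 0.184 from limma).

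Among the probes of the de novo enzyme genes, 1 was called, of *DNMT3A*, and the protein made from its transcript was not examined. Probe A_23_P420373, which the files assign to transcript NM_175630 at chr2:25504394-25504453 (hg19, minus strand), read -2.59 and -2.43 in siCONT, -2.32 and -1.84 in siUHRF1, -2.03 and -2.27 in siCONT + TSA, and -1.83 and -1.79 in siUHRF1 + TSA. All treated arrays lay above both siCONT arrays. The combination was 1.62-fold higher than siCONT (log2 change 0.70, SE 0.18, adjusted p = 0.0359 from limma), and siUHRF1 alone and siCONT + TSA alone differed from siCONT by 0.43 (adjusted p = 0.561) and 0.36 (adjusted p = 0.236). The call was lost in 10 of 21 alternatives, including omission of any array of siCONT, siCONT + TSA or siUHRF1 + TSA (adjusted p = 0.0632 to 0.184), normexp (0.286), spike-in scaling (0.0515) and no filter (0.0937). The other *DNMT3A* probes, A_33_P3272330 and A_23_P154500, are assigned to another transcript and were not called in any comparison. They ranged from -0.97 to 0.04 and from -0.68 to -0.14 over the siRNA arrays. Their differences between the combination and siCONT were 0.46 (interval -0.23 to 1.15) and 0.19 (-0.15 to 0.52).

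*DNMT3B* probe A_23_P28953 read 0.36 and 0.33 in siCONT, 0.50 and 0.68 in siUHRF1, 0.54 and 0.46 in siCONT + TSA, and 0.38 and 1.02 in siUHRF1 + TSA. Its difference between the combination and siCONT, 0.36 (interval -0.15 to 0.86), was not called, and siUHRF1 + TSA replicate 2 stood apart from its partner. The second *DNMT3B* probe, A_33_P3359508, was not well above background on any array. *DNMT3L* probe A_23_P17673 read -6.47 to -6.05 on the 6 siRNA arrays outside the combination and -4.56 and -3.97 in siUHRF1 + TSA. The scanner software did not mark these last signals as well above background, so the probe was not tested.

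*UHRF2*, the paralogue of *UHRF1*, and *USP7* were not called in any comparison. *UHRF2* probe A_33_P3279715 read 1.25 and 1.36 in siCONT, 1.13 and 1.17 in siUHRF1, 0.66 and 0.98 in siCONT + TSA, and 0.95 and 0.84 in siUHRF1 + TSA. All 4 TSA arrays lay below the 4 mock arrays, with a log2 difference of -0.49 in control cells (interval -0.80 to -0.17, adjusted p = 0.0661 from limma) and -0.26 in depleted cells (-0.58 to 0.06). Probe A_24_P303815 differed by -0.80 in control cells (interval -1.57 to -0.03), and its siUHRF1 arrays were far apart at -0.86 and -1.89. *USP7* probe A_24_P245108 read -2.03 and -2.43 in siCONT, -2.14 and -2.45 in siUHRF1, -1.66 and -1.67 in siCONT + TSA, and -1.32 and -1.99 in siUHRF1 + TSA, a difference of 0.56 with TSA in control cells (interval -0.05 to 1.17).

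By comparison, 3 of the 15 tested member probes were called in siUHRF1 against siCONT, 1 higher (*TET1*) and 2 lower (both of *UHRF1*), beside 0.519% of all tested probes called higher and 0.0380% lower. For TSA in control cells limma called 0 member probes, beside 6.50% and 3.95%. At an unadjusted p below 0.05 there were 3, and the other tests and settings called 0 to 3. In siUHRF1 + TSA against siCONT 4 were called, 2 higher and 2 lower, beside 15.0% and 8.25% of all probes. Against siCONT + TSA there were 3, 1 higher and 2 lower, beside 2.96% and 0.574%. Against siUHRF1 there were 3, 2 higher and 1 lower, beside 9.95% and 5.53%. The *UHRF1* calls against control siRNA are the depletion itself. *TET1* probe A_33_P3295550 and *TET2* probe A_33_P3266719 entered the test only through groups where they were high. The counts are thus no result about the members as a set. The balance of all calls moved with the scaling: the combination against siCONT had 3553 probes higher and 1956 lower, with 1736 and 1597 under spike-in scaling and 3138 and 2800 under quantile normalization. TSA in control cells had 1540 higher and 936 lower, with 380 and 406 under spike-in scaling, and the combination against siUHRF1 had 2358 and 1310, with 925 and 945 under spike-in scaling and 2088 and 1966 under quantile normalization. The median log2 change of the 15 member probes lay between -0.08 and 0.15 in these 5 comparisons, and that of all tested probes between -0.01 and 0.07. The comparisons share arrays, so their counts are not independent of each other.

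**Figure D2:**
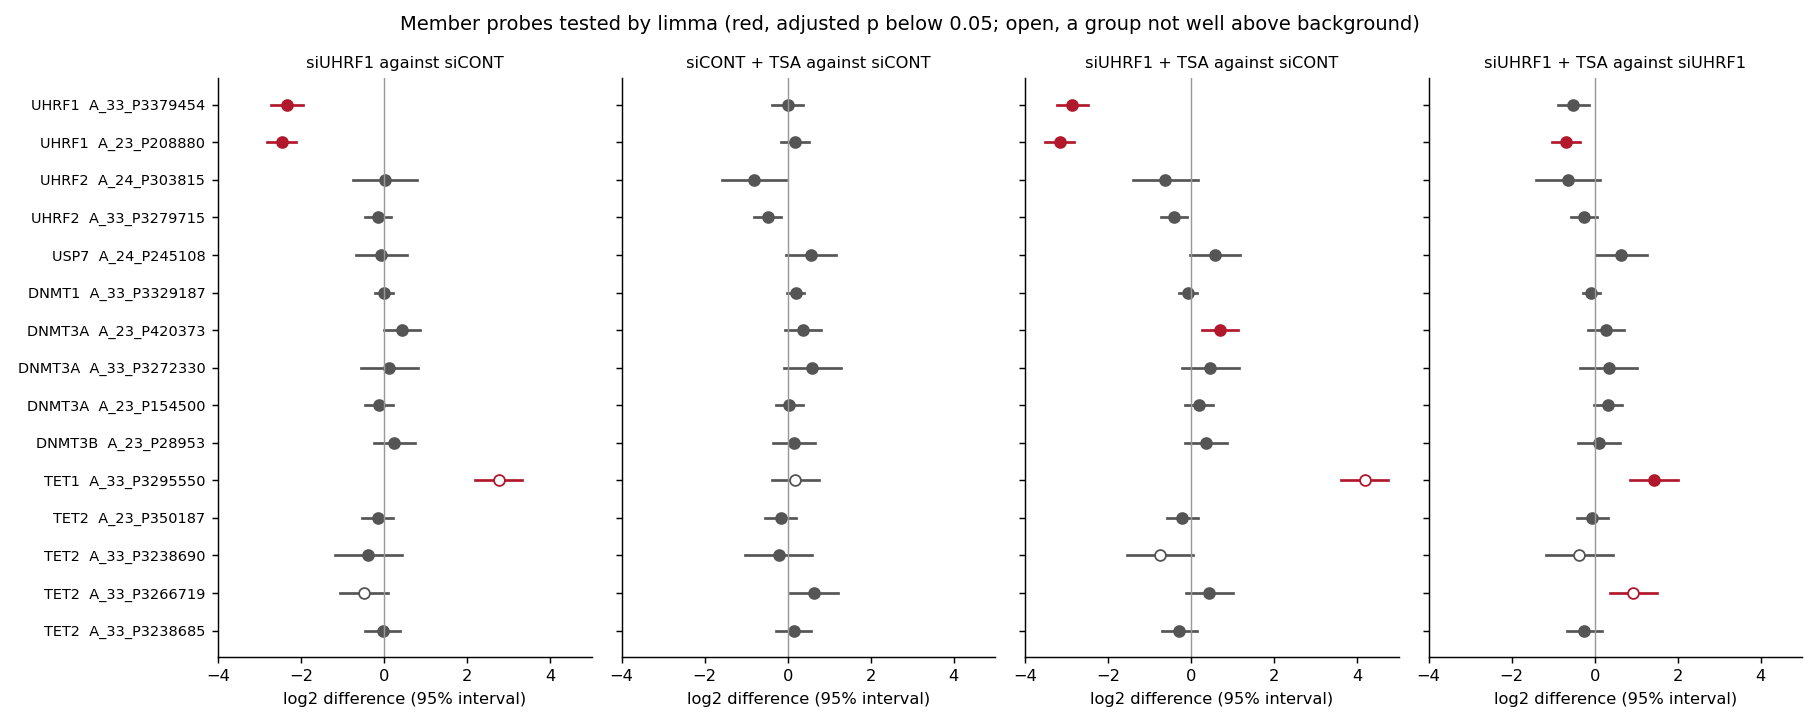
Log2 differences of the 15 tested member probes (rows) in 4 comparisons (panels), with 95% intervals from limma as lines. Red marks an adjusted p below 0.05 and open circles a comparison in which at least 1 group was not well above background; *UHRF1* lies left of 0 in the 3 panels with a depleted group first, *TET1* lies right of 0 there, and no symbol is red for siCONT + TSA against siCONT.

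Whether depletion acted differently with TSA was tested as the difference between its effects with and without TSA. It was called for 0 of the 15 member probes by limma and for 2 at an unadjusted p below 0.05, and no alternative that fitted this difference called one. Of all tested probes 0.359% were called higher and 0.0211% lower. The differences were largest for *TET1*, at 1.24 (interval 0.43 to 2.04, adjusted p = 0.538), and for *UHRF1* probe A_23_P208880, at -0.88 (interval -1.36 to -0.39, adjusted p = 0.364). Since siCONT and siCONT + TSA were not well above background for *TET1*, its fitted difference rests on signals that are only bounds and is no measure of size.

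**Figure D3:**
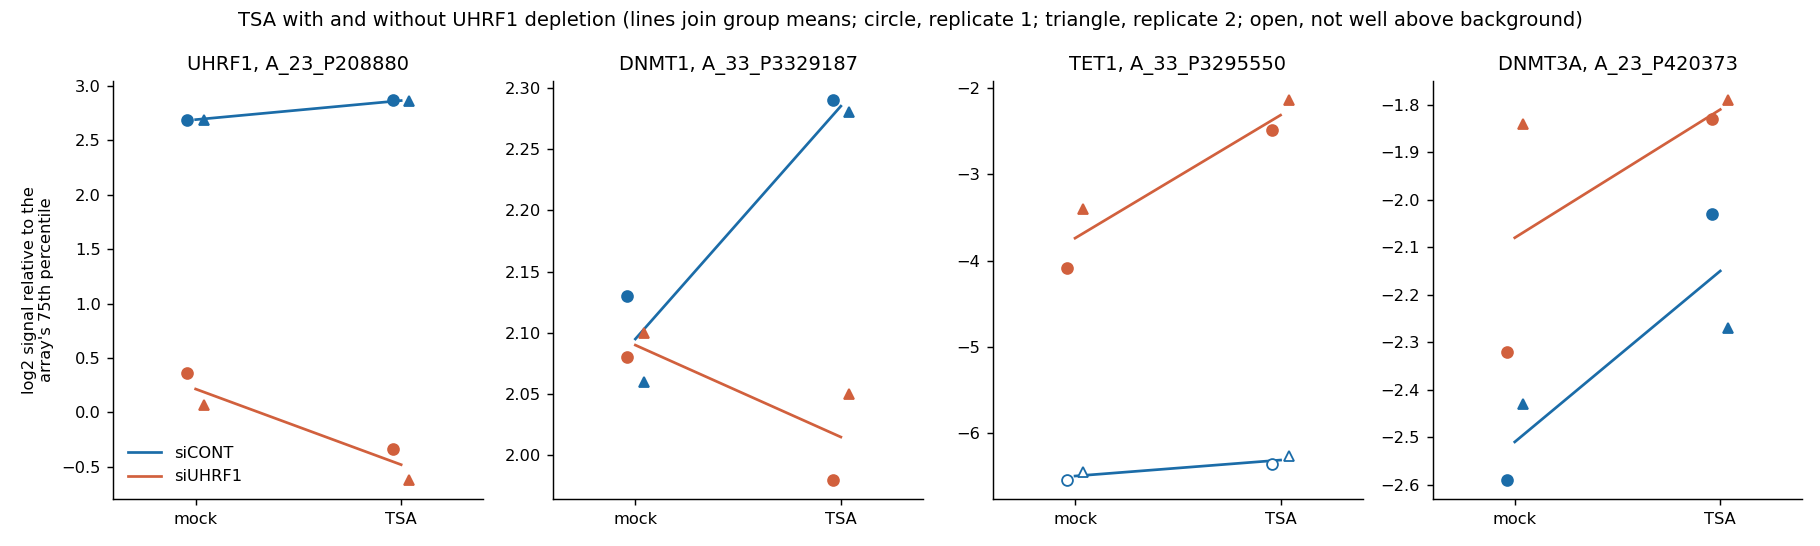
Log2 signal relative to the array's 75th percentile (vertical axes, ranges differ between panels) with mock or TSA (horizontal axes) for 1 probe each of *UHRF1*, *DNMT1*, *TET1* and *DNMT3A*. Blue is siCONT, orange siUHRF1, lines join group means, circles and triangles are replicates 1 and 2, and open symbols are not well above background; *DNMT1* spans only 1.98 to 2.29, and *TET1* goes from -3.74 to -2.32 in depleted cells.

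On the 5-aza-dC array, 16 member probes could be compared with the siCONT mean, and 5 had measured values over 2-fold apart, 4 higher and 1 lower. For 3 of the 4 higher, siCONT was not above background, and the lower limit of only 1 of these exceeded 2-fold. Of all 26727 probes compared, 18.5% were over 2-fold higher and 13.6% over 2-fold lower. There was 1 array, so no test was made, and the drug cannot be told apart from the slide, the scan and the absence of transfection. *TET1* probe A_33_P3295550 read -1.86, above all 8 siRNA arrays and at least 5.49-fold above siCONT, and probe A_19_P00806490 was at least 1.29-fold above siCONT. These limits are approximate, as they are for the siRNA groups. *DNMT3L* read -4.46 against a siCONT mean of -6.25 that was not above background, and its lower limit was under 1. *DNMT3A* probe A_23_P420373 was higher by 1.64 on the log2 scale and A_33_P3272330 lower (difference -1.06), so probes of the same gene went opposite ways.

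The members just outside 2-fold were the *UHRF1* probes, with log2 differences of 1.00 (A_23_P208880, 3.69 on the array) and 0.98 (A_33_P3379454). *DNMT3B* followed at 0.85 and *DNMT1*, whose protein the drug traps on DNA, at 0.60, with 2.70 on the array and at most 2.29 on any siRNA array. *UHRF2* and *USP7* differed by -0.42 to -0.10. Under spike-in scaling 11 member probes passed 2-fold, under normexp 1, among probes above background on all 3 arrays 2, and without siCONT replicate 2, 8.

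**Figure D4:**
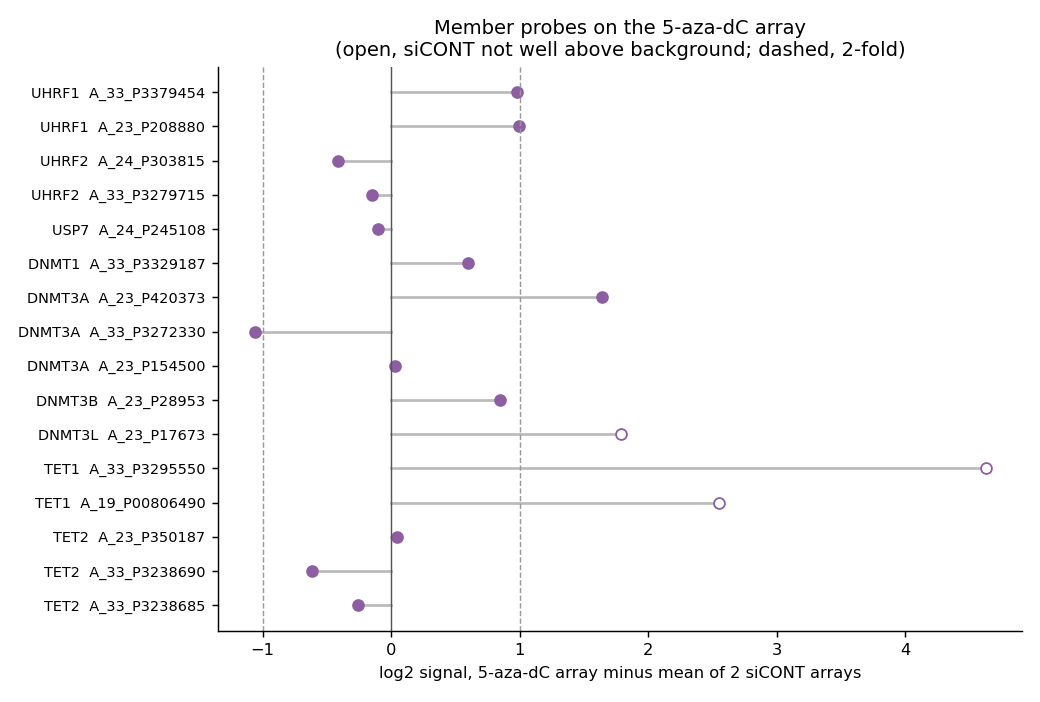
Log2 signal on the 5-aza-dC array minus the mean of the 2 siCONT arrays (horizontal axis) for the 16 member probes compared (rows). Dashed lines mark 2-fold and open circles probes for which siCONT was not well above background; *TET1* probe A_33_P3295550 lies farthest right at 4.63, and both *UHRF1* probes end at the 2-fold line.

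The partners of the members were read from lists of genes, each by its brightest probe. In siUHRF1 + TSA against siCONT, 8 of 15 tested maintenance partners were called, 7 lower and 1 higher (*DMAP1*). Of 17838 genes tested this way 16.1% were higher and 8.08% lower. The fallers included *HELLS*, a chromatin remodeler needed for methylation of repeats, *LIG1*, the ligase of lagging strand synthesis that recruits UHRF1, and *PCNA*, the replication clamp. *HELLS* read 0.69 and 0.66 in siCONT, 0.41 and 0.63 in siUHRF1, -0.03 and 0.00 in siCONT + TSA, and -0.77 and -0.34 in siUHRF1 + TSA (log2 change -1.23, SE 0.16, adjusted p = 0.00474 from limma). *LIG1* and *PCNA* changed by -0.90 (adjusted p = 0.00994) and -0.67 (adjusted p = 0.0183). The list's median was 0.12, beside 0.07 for all genes, so its sign went against that of most of its calls. Under spike-in scaling the counts were 4 lower and 0 higher, and under normexp 3 and 0.

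In the combination 8 of the 15 partners had changes above 0, and those called lower went the way of the S phase genes. Of 42, which include *PCNA*, *HELLS* and *CDCA7*, 27 were called lower in the combination (18 under normexp) and 17 in siCONT + TSA (11 under normexp and 7 under spike-in scaling), with medians of -0.74 and -0.63, and by limma 0 in siUHRF1 (1 at an unadjusted p below 0.05, median -0.02). In RNA from whole cultures, fewer cells in S phase and less RNA per cell cannot be told apart. Their part in the changes of the maintenance genes was not tested, and *UHRF1* and *DNMT1* are themselves S phase genes by textbook knowledge. In siCONT + TSA against siCONT, 0 of the 42 S phase genes lay above 0. There the *UHRF1* probes differed by 0.18 and 0.00 and *DNMT1* by 0.19, none called by limma. Under normexp these differences changed sign. In siUHRF1 against siCONT limma called 0 of the 15 partners, with 2 at an unadjusted p below 0.05, beside 0.611% of all genes called higher and 0.0336% lower. In siCONT + TSA 2 partners were called lower (1 under spike-in scaling or normexp, 3 under quantile normalization) and 0 higher, beside 7.00% of genes higher and 3.87% lower.

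Of 8 methyl-CpG readers, 2 rose in the combination and 0 fell, a count near the 16.1% and 8.08% of all genes, and 1 rose under spike-in scaling or normexp. *MBD3*, a subunit of the NuRD deacetylase complex, read 2.26 and 2.27 in siCONT, 2.35 and 2.66 in siUHRF1, 3.01 and 2.93 in siCONT + TSA, and 3.31 and 3.39 in siUHRF1 + TSA (log2 change 1.09, SE 0.12, adjusted p = 0.00318 from limma). *MBD1* rose by 0.56 (adjusted p = 0.0104), a call kept under 3 of 5 other scalings and backgrounds. The readers' median was 0.18. In siCONT + TSA 1 reader was called higher (0 under spike-in scaling or normexp), and in siUHRF1 limma called 0 of the 8 (1 at an unadjusted p below 0.05).

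Of 14 tested demethylation and base excision genes, 1 rose and 3 fell in the combination, beside 16.1% and 8.08% of all genes, with a median of -0.11. *GADD45A*, a stress-induced gene linked to demethylation, changed by -1.45 (adjusted p = 0.00542 from limma) and *IDH1*, a source of the 2-oxoglutarate that TET enzymes use, by -1.29 (adjusted p = 0.00319). *TDG*, the glycosylase that excises oxidized methylcytosine, rose by 0.56 (adjusted p = 0.0438), a call kept under 1 of 5 other scalings and backgrounds. With TSA alone 1 was higher and 3 lower (0 and 0 under spike-in scaling, 0 and 2 under normexp), beside 7.00% and 3.87% of all genes. With depletion alone limma called 0 (also 0 at an unadjusted p below 0.05).

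Of 10 tested methyl donor genes, 2 were higher and 3 lower in the combination, beside 16.1% and 8.08% of all genes, with a median of -0.06. *MAT2A*, which makes S-adenosylmethionine, rose by 1.06 (adjusted p = 0.007 from limma) and was not called under spike-in scaling (adjusted p = 0.074). *SHMT1*, a one-carbon enzyme of the cytosol, changed by -0.84 (adjusted p = 0.00244). TSA alone gave 2 higher and 2 lower (0 and 1 under spike-in scaling or normexp), beside 7.00% and 3.87% of all genes. Depletion alone gave 0 by limma and 0 at an unadjusted p below 0.05. Spike-in scaling shifted the median change of all probes in the combination from 0.05 to -0.10, and under it 0 methyl donor genes were called higher and 2 lower, with 1 and 1 under normexp.

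**Figure D5:**
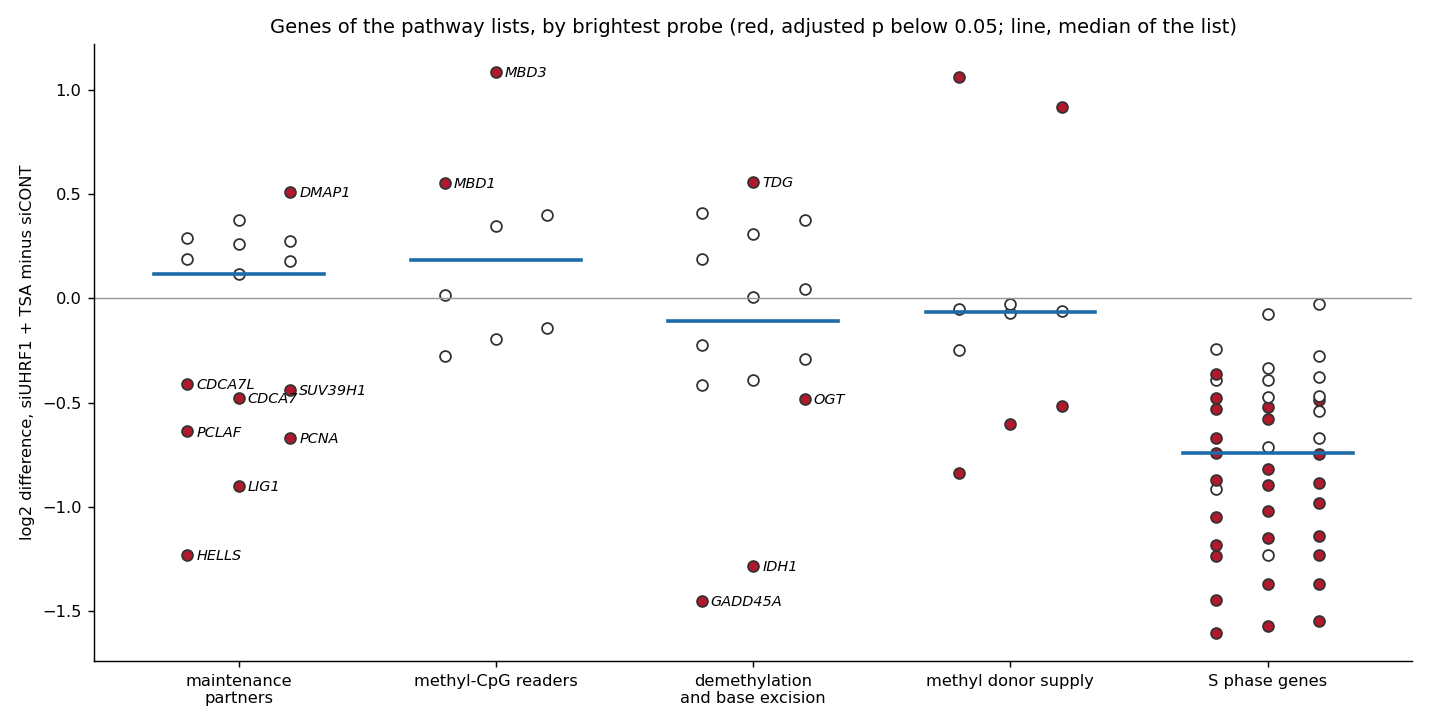
Log2 difference between siUHRF1 + TSA and siCONT (vertical axis) for the tested genes of 5 lists (horizontal axis), each by its brightest probe. Red marks an adjusted p below 0.05 and blue lines list medians; 7 maintenance partners and 27 S phase genes are red below 0.

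The genes whose signal followed the members most closely over the 8 siRNA arrays were found among 13427 named genes. For *UHRF1* they were *NCSTN* (Pearson r 0.99), *IPMK* (0.98), *DTX3L* (0.98), *ATP2A2* (0.98) and *ZC4H2* (0.98), all low on the 4 depleted arrays. *NCSTN*, a subunit of gamma-secretase, read 3.13 and 3.19 in siCONT and 2.81 and 2.78 in siUHRF1 + TSA. For *DNMT1* they were *CAST* (0.98), *CFAP418* (0.97), *GNG10* (0.97), *CELF1* (0.96) and *CDKN2AIPNL* (0.96), with the highest signals in siCONT + TSA. The 8 points fall into 4 groups and share arrays, so these correlations are a description.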

How the data were processed

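The authors hybridized Cy3-labelled total RNA of RKO cells to SurePrint G3 Human GE v2 arrays and deposited scanner files (Agilent Feature Extraction 10.7.3.1 per the file headers, 10.7 in the submitters' processing notes). The deposited values are spot intensities after background subtraction and detrending, with surrogates for dim spots and no normalization between arrays. The study's methods name GeneSpring GX and, for statistics, t-tests and ANOVA. How RKO arrays were normalized is not given in the sources used here.

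Here gProcessedSignal was log2-transformed, and the 75th percentile of its array was subtracted. Outlier spots were dropped and repeat spots averaged. The 4 siRNA groups (8 arrays) were fitted with lmFit and eBayes of limma 3.58.1 in R 4.3.3, with Benjamini-Hochberg adjustment over 23703 probes. The fit was also run on simulated arrays with the same spread in every group and no effect shared by siRNA. That run does not check the test under the unequal spread of the groups seen here. The 5-aza-dC array was compared without a test. Precision is limited by the small number of arrays. Gene names came from the files and, for 28170 probes, RefSeq.

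Member genes, pathway lists and tests were chosen with earlier results of these data known. The text names every member probe, up to 3 called genes per pathway list with the largest change in siUHRF1 + TSA against siCONT (other genes named fall outside this rule and were chosen after their values were seen), and for *UHRF1* and *DNMT1* the 5 genes of highest correlation. Some genes that the rule would name are not reported here. Alternatives were normexp with an offset of 50, quantile normalization, the median of probes above background, spike-in scaling, no filter and a stricter filter, retained outlier spots, the authors' value table, a fit with a replicate block, fits to only the groups compared, a trended and robust prior, the methods' t-test, and each array left out. A block for slide could not be fitted, since all siRNA arrays share 1 slide. Replicate numbers were not taken to pair arrays: differences between replicates correlated at 0.47 between the groups given the same *UHRF1* siRNAs and at -0.05 to 0.08 in the other pairs of groups. The main comparison of siUHRF1 + TSA with siUHRF1 thus left aside that both groups carried the same siRNAs. The replicate block gave all 4 groups the same shift between replicates, so it did not model the pairing by siRNA alone.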

Additional observations from a re-analysis of the deposited data

Results flagged for a closer look

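Both results below had every TSA array on 1 side of its mock arrays in control cells and on the opposite side in depleted cells. With 2 arrays a group, unchanged probes can show this pattern too. Its share among all tested probes was not counted, so the pattern does not set these probes apart. On the *UHRF1* probe A_23_P208880, both siCONT + TSA arrays (2.87 and 2.86) lay above both siCONT arrays (2.69 each), and both siUHRF1 + TSA arrays (-0.34 and -0.62) lay below both siUHRF1 arrays (0.36 and 0.07). The difference between the effects was -0.88 on the log2 scale (SE 0.20, adjusted p = 0.364 from limma), which fails the correction. On the *DNMT1* probe A_33_P3329187, the siCONT + TSA arrays (2.29 and 2.28) lay above siCONT (2.13 and 2.06), and the siUHRF1 + TSA arrays (1.98 and 2.05) below siUHRF1 (2.08 and 2.10). The difference was -0.27 (SE 0.12, unadjusted p = 0.0709 and adjusted p = 1.00 from limma). Under normexp the TSA difference in control cells changed sign for both probes, to -0.05 for *UHRF1* and -0.02 for *DNMT1*.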

How the results depend on the processing

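Of the 13 changes of member probes called, none reversed under any alternative, and over all of them the call was kept 213 times and lost 55 times. These totals include alternatives close to the main fit, such as the authors' value table and retained outlier spots. The *UHRF1* falls supply much of the kept calls, so the totals do not measure how firm the other calls are. The *UHRF1* falls against siCONT and siCONT + TSA were kept in 20 of 21 alternatives each, the exception being the methods' t-test with adjustment. That t-test called 0 member probes in siUHRF1 against siCONT, in siUHRF1 + TSA against siCONT, against siCONT + TSA and against siUHRF1, where limma called 3, 4, 3 and 3, and 1 in siCONT + TSA against siCONT, where limma called 0. Without adjustment it called 3 in siCONT + TSA against siCONT and 1 in siUHRF1 + TSA against siUHRF1. With only the groups compared in the fit these counts were 3 and 0, and with a trended and robust prior 1 was called in siCONT + TSA against siCONT. Normexp gave 2 in siUHRF1 + TSA against siCONT and 0 against siUHRF1. Against siUHRF1, spike-in scaling gave 1 and the stricter filter 1. With each array left out in turn, siCONT + TSA against siCONT had 0 to 1 called (1 without either siUHRF1 array), and siUHRF1 + TSA against siUHRF1 had 0 to 3 called (0 without siUHRF1 + TSA replicate 2, and 1 without siUHRF1 replicate 1 or either siCONT + TSA array). On the 5-aza-dC array, where 5 member probes passed 2-fold, normexp gave 1, spike-in scaling 11, and only probes above background on all 3 arrays 2, while leaving out a siCONT array gave 4 to 8 (8 without replicate 2). With a replicate block 3, 0, 4, 3 and 2 member probes were called in the 5 comparisons in the order of the report, and *TET2* (adjusted p = 0.0549) was the call lost; other counts of called member probes stayed within 1.5 times. The cause of these changes was not tested. Signal over background limits *TET1*, *TET2*, *TET3* and *DNMT3L*.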
